A study of Rattus norvegicus with 6 samples.

Results

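Transcribed ultraconserved elements were measured by 962 probes, a plus (+) and a minus (-) strand probe for each of 481 elements, among the 24684 non-control probes of a 1-colour Agilent array for long non-coding RNAs and mRNAs. The members were taken by name: every probe whose sequence identifier has the form uc.N+ or uc.N-, with N running from 1 to 483 (11 and 32 have no probe). RNA came from H9c2, a line of myoblasts derived from the heart of a rat embryo and used as a culture model of heart muscle. Control cells were kept at normal oxygen. The other group went through hypoxia/reoxygenation (H/R): in medium without serum or glucose, cells spent 1 h in 1% oxygen, 5% carbon dioxide and 94% nitrogen and then 3 h back at normal oxygen. Beforehand all cells were kept in 10% serum with glucose at 4500 mg/L. What medium the control cells had meanwhile is not stated, so the effects of oxygen and of nutrients cannot be told apart. The question of the design was which coding and non-coding RNAs change in level after H/R.

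Ultraconserved elements are stretches of DNA that are identical between the human, mouse and rat genomes. Some overlap exons of genes for RNA-binding and splicing proteins, where they are known for exons whose inclusion makes the mRNA unproductive, and many others lie outside coding sequence near genes of development, where some act as enhancers. Their numbers follow the order of the elements along the human chromosomes. RNA transcribed from them, on one strand or on both, is called T-UCR, and single T-UCRs have been studied in cancer, hypoxia and the heart. The files name the strand of a probe only by the + or - in its name and hold no probe sequence.

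Each group has 3 files, but in each group files 2 and 3 came from 1 slide position and differ in scan. The median log2 difference of a member's spot between such files was 0.0606 in one group and 0.158 in the other, and 0.193 to 0.588 between other files of a group. Over the members H/R file 1 lay nearer to the control files (0.207 to 0.241) than to the scans of H/R array 2 (0.547 and 0.588). Over all spots it was the other way round, with 0.2645 to 0.282 to control and 0.219 and 0.220 to H/R array 2. Both scans were therefore averaged and count once, so that n = 2 in each group, and this number limits every value. The labels do not say that the arrays came from separate cultures. The p-values therefore reflect only how much these arrays vary, and that variation may be technical. Of 9 muscle-line markers 8 had a named probe, and each was well above background in all 6 files. Of 8 brain markers with a probe, a tissue that the protocol text mentions, Gfap and Mbp were well above background in all 6 files, while Rbfox3, Stmn2, Gad1 and Slc17a7 were so in 0 files and Syt1 and Aqp4 in 1.

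Most ultraconserved element probes stayed near background. Well above background, the scanner software's own flag, is called detected here. Of the 962 probes, 557 (57.9%) were detected in 0 of 6 files, 202 (21.0%) in all 3 control files and 236 (24.5%) in all 3 H/R files. The 2 groups had 196 probes in common, which is 97.0% of the control set and 83.1% of the H/R set. In the same files 68.5% (control) and 71.5% (H/R) of mRNA probes and 56.8% and 60.7% of RefSeq non-coding probes were detected in all 3 files. Detection did not differ much by strand, with 97 plus and 105 minus strand probes in control and 116 plus and 120 minus strand probes in H/R.

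Counts in single files differed most between H/R array 2 and the rest. Control files 1 to 3 had 223, 248 and 265 detected members, H/R file 1 had 243, and the 2 scans of H/R array 2 had 375 and 357. H/R array 1 therefore lay within the control range and only array 2 lay above it. In array 2, 111 probes were detected in both scans that were not detected in array 1, and 7 were detected in array 1 but not in both scans of array 2. Detection of other probes was higher on that array too: 80.0% and 78.6% of mRNA probes in its scans, against 71.9% on H/R array 1 and 69.6% to 72.3% in control. The dimmest signal scored as detected was 10.8 and 12.4 units in the scans of H/R array 2, 12.9 in H/R array 1 and 13.8 to 19.1 in control. The part of these limits in the count was not tested.

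**Figure D1:**
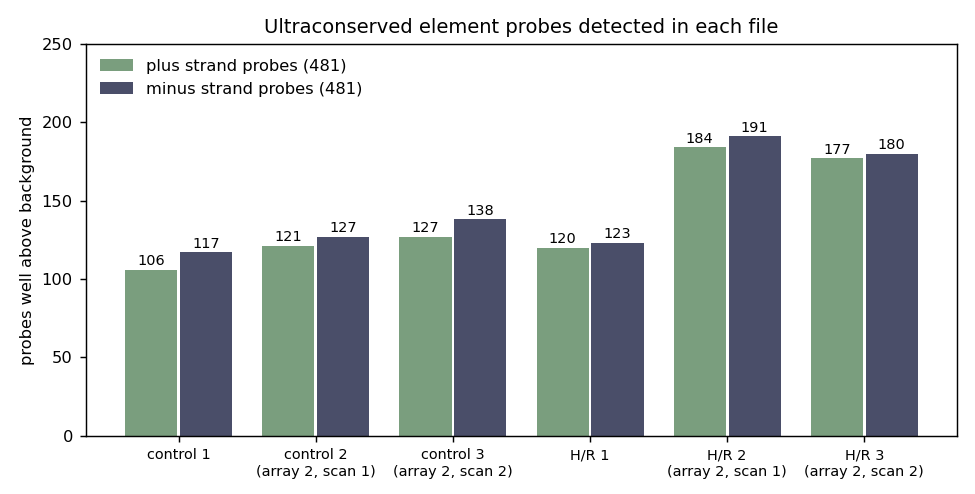
Number of ultraconserved element probes well above background (vertical axis) in each of the 6 files, with plus and minus strand probes as separate bars of 481 probes each. H/R array 2 stands apart in both of its scans (184 and 177 plus, 191 and 180 minus strand probes), while H/R file 1 (120 and 123) lies within the control range.

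The 242 members detected in all 3 files of at least 1 group were tested, 119 plus and 123 minus strand probes. They belong to 197 of the 481 elements (41.0%): 74 elements had the plus strand probe alone, 78 the minus strand probe alone and 45 both. Of the 720 members not tested, 163 were detected in some files but in no group's 3 files, and 2 probes (uc.54- and uc.397-) lacked a usable spot in 1 file. Signals below are scaled so that the 75th percentile of each array is 1000 (scaled signal), and changes are H/R minus control on the log2 scale with a moderated SE from limma. The brightness of different probes depends on the probe and is not compared as an amount of RNA. It is used only to say how far a member lies above background. The median scaled signal of the tested members was 23.1, against 354 for all 15899 probes tested, and 60.3% of the members lay below 30.

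After H/R, 15 members rose and 16 fell (limma, 2 arrays against 2, Benjamini-Hochberg adjusted p under 0.05 over all probes tested), which is 12.8% of the 242. Of all probes tested 23.7% changed, so the members' share was below the background. For rises it was 6.2% against 14.8%, and for falls 6.61% against 8.87%. Among probes spotted once on the array, as every member is, 25.4% changed. Members past the threshold with a fitted change of at least 2-fold made up 3.31% of those tested, against 5.64% of all probes. For 3 of these 8 members, not detected in any control file, the bound given below is under 2-fold. The H/R scans lay all on one side of the control scans in 108 members (44.6%, against 64.1% of all probes), with 52 above (21.5%, against 37.4%) and 56 below (23.1%, against 26.7%). An unadjusted p under 0.05 was reached by 67 members (27.7%, against 39.7%). The median change was 0.01, with quartiles of -0.24 and 0.26, against a median of 0.07 over all probes. Members also had wider errors, with a median SE of 0.16 against 0.11.

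A probe detected only after H/R entered the test through the group in which it was high, so its call is no support for a rise. Among the 196 members detected in all 6 files, 9 rose and 17 fell. In the same fit 2266 of all 14835 probes rose and 1524 fell. The calls rest on few arrays. With 1 array left out the other array of its group is assumed to vary like the remaining group. Then 9 members changed when H/R array 1 was dropped (4 higher, 5 lower) and 9 when H/R array 2 was dropped (3 higher, 6 lower). Without control array 1 the counts were 13 higher and 8 lower, and without both scans of control array 2 they were 19 and 22. Over all probes fewer passed with any 1 array left out than in the main fit. Another scaling moved the balance of directions: 8 higher and 25 lower after quantile normalization, and 13 and 31 with arrays scaled to their median. The balance over all 15899 probes moved too. It was 2358 higher and 1411 lower in the main fit, 1987 and 1707 after quantile normalization, and 1566 and 2253 with median scaling. Under the 4 other scalings tried, the authors' deposited table among them, 8 of the 15 rises and all 16 falls stayed past the threshold. These 8 include the 3 called members not detected in any control file. Their calls rest on control signals below background and do not support a rise under any scaling. After normexp background correction 0 members passed in limma, with 3 at an unadjusted p under 0.05, and 10 of the 16 falls changed sign there. Of all probes tested 0 passed after normexp either.

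Called members that rose were dim and called members that fell lay further above background. The filter bears on this, since 40 members passed it through H/R alone and 6 through control alone. The mean scaled signal was between 3.93 and 74.8 for the 15 rises (median 13.1) and between 8.34 and 10974 for the 16 falls (median 88.2). The division of the members at a mean scaled signal of 100 was chosen after their values were seen and was not tested. Of the 42 members at 100 or more, 36 were lower in H/R and 6 higher, with a median change of -0.31. In limma 7 of them fell and 0 rose, with 16 falls and 0 rises at an unadjusted p under 0.05. The 7 falls became 2 without control array 1, 10 without control array 2, 2 without H/R array 1 and 1 without H/R array 2. After normexp 0 passed, with 0 rises and 2 falls at an unadjusted p under 0.05, and 29 were lower and 13 higher. At the same signal the 9851 probes of the whole array had a median of 0.02, and 13.4% rose and 10.9% fell. Of these, 2105 were higher and 1905 lower at an unadjusted p under 0.05 in limma. The median of the 42 stayed below 0 under every alternative run, between -0.44 (median scaling) and -0.20 (normexp). The highest change among them was 0.24 (uc.420-). The 200 members below 100 had 15 rises, 9 falls and a median of 0.11, a median that turned to -0.06 after quantile normalization and -0.01 with median scaling. With only probes detected in all 6 files, 154 of them remained, with 9 rises, 8 falls and a median of -0.00088. At scaled signals under 10, of 10 to 30 and of 30 to 100, 10.8%, 8.26% and 3.70% of members rose. Of all probes tested, 24.2%, 14.4% and 17.9% rose there. Falls made up 2.70%, 0.917% and 13.0% of members and 3.26%, 4.22% and 8.38% of all probes.

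**Figure D2:**
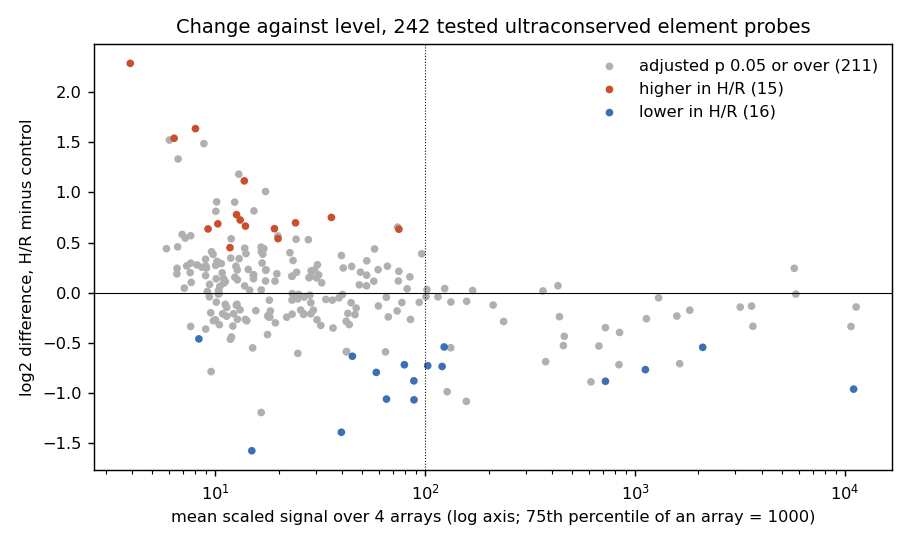
Log2 change, H/R minus control (vertical axis), against the mean scaled signal over 4 arrays (horizontal log axis) for the 242 tested members, with the 15 higher and 16 lower members in colour and a dotted line at 100. All 15 rises lie at 74.8 or below, and of the 42 members to the right of the line 36 lie below 0.

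Among the members that rose, those with the largest fitted changes were not detected in control. For uc.141+ the scaled signals were 1.90, 1.97 and 1.39 in control files 1 to 3 and 10.3, 6.83 and 7.80 in H/R files 1 to 3. The groups did not overlap, and because no control file was above background the change is given only as a bound: at least 1.20-fold higher in H/R. The limma adjusted p of 0.00413 was computed on control signals below background, after a filter that the probe passed through H/R alone, and does not support the rise. A bound of this kind sets the mean of the brighter group against the control arrays, where the dimmest signal scored as detected stands in for the probe's signal if that was lower. It leaves out the spread between arrays. For uc.81+ the signals were 4.27, 2.45 and 4.31 in control and 11.6, 11.02 and 9.22 in H/R, at least 1.5-fold higher (adjusted p = 0.00679, with the same limit). Their H/R signals stood only a little above the dimmest detected signal, which on this scale was 4.21 to 7.29 in H/R files and 6.61 to 7.77 in control files.

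One ultraconserved element is known to lie in the gene of SRSF3, an SR protein that regulates splicing, including that of its own mRNA. The genes given here for single elements are background knowledge and were not checked against positions in the rat genome. The scaled signals of the plus strand probe of the SRSF3 element were 4.66, 4.48 and 4.41 in control and 13.2, 15.5 and 14.9 in H/R. All H/R files lay above all control files, and the probe was detected in 3 of 3 H/R files and 0 of 3 control files. The H/R signal was at least 1.96-fold higher. The fitted change of 1.64 and its adjusted p of 0.00282 (0.533 after normexp) rest on control signals below background, and as for uc.141+ they do not support the rise. The minus strand probe of that element was detected in no file.

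The mRNA probe of Srsf3 was higher after H/R, with scaled signals of 152, 188 and 187 in control and 280.0, 298 and 305 in H/R. Its change was 0.78 ± 0.14 (1.72-fold, adjusted p = 0.0199), with adjusted p of 0.0516 without control array 1, 0.0784 without H/R array 1 and 0.101 when H/R array 2 was left out. The Srsf3 call was also lost after normexp (limma adjusted p = 0.315) and with no filter on dim probes (0.0940). Srsf3 was the only 1 of 10 tested genes to pass in a list of 12 genes known to hold an ultraconserved element in or beside an exon (10.0%, against 25.7% of mRNA probes). The median change of the 10 was -0.13. The others tested were Ogt, Pcbp2, Tra2b, Ptbp2, Srsf7, Srsf6, Tra2a, Rbm39 and Hnrnpu, and Srsf11 and Tial1 had no probe matched by name. Of these, Srsf7, another SR protein gene, was lower by 0.41 ± 0.11 on the log2 scale in H/R, which missed the threshold (adjusted p = 0.0546). It passed with quantile normalization (0.0394), median scaling (0.0303), the authors' deposited table (0.0392) and only probes detected in all 6 files (0.0461). With 6 separate files, which counts 1 array as 2, it passed too (0.0023). After normexp it did not pass, as was true of all probes tested.

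A further 5 rises were named by size. The scaled signals of uc.215+ were 11.1, 7.32 and 8.44 in control and 16.7, 25.6 and 23.3 in H/R, a fitted change of 1.12 ± 0.25 (adjusted p = 0.0371). It was detected in 1 of 3 control files, so the change rests partly on signals not above background. The call was lost with quantile normalization (0.0589), the authors' deposited table (0.0581), the replicate block (0.0539), no filter (0.130) and normexp (0.533). It was lost too without control array 2 (0.0929), H/R array 1 (0.0554) or H/R array 2 (0.127). The brightest of the 5, uc.304-, had 26.4, 28.9 and 28.3 in control and 47.6, 44.9 and 44.9 in H/R, a 1.68-fold rise (0.75 ± 0.10, adjusted p = 0.0107), and its files were tightly grouped. For uc.286-, uc.57+ and uc.413- the rises were 1.71-fold, 1.65-fold and 1.62-fold (adjusted p = 0.0192, 0.0485 and 0.0193). Of these 5, uc.286-, uc.304- and uc.413- were detected in all 6 files. The remaining 7 rises (uc.186-, uc.117+, uc.34-, uc.152-, uc.339+, uc.133- and uc.121+) were between 1.36-fold and 1.61-fold. In all, 7 of the 15 rises came from probes not detected in every control file, among them uc.57+ and uc.186- (2 of 3 files) and uc.152- (1 of 3), and the fitted changes of these 7 rest partly or wholly on control signals not above background. The brightest rise was uc.339+, with 60.7, 61.5 and 57.3 in control and 94.4, 93.1 and 90.4 in H/R (1.55-fold, adjusted p = 0.0128).

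Among the members that fell, the 2 with the largest fitted changes bear consecutive numbers. The scaled signals of uc.366- were 28.4, 23.2 and 23.4 in control and 7.21, 10.5 and 10.2 in H/R, a fall to 0.335 of control (-1.58 ± 0.21, adjusted p = 0.0104). H/R file 1 was the lowest and was not detected. For uc.367+ they were 56.4, 73.5 and 74.0 in control and 19.6, 30.3 and 31.1 in H/R, a fall to 0.381 (-1.39 ± 0.26, adjusted p = 0.0230). In both probes H/R array 1 lay below array 2, and no H/R file reached a control file. Consecutive numbers occurred in 2 other pairs of called elements. These were uc.188- (fell) with the SRSF3 element (higher in H/R, not detected in control) and uc.285+ (fell) with uc.286- (rose). How often called elements would bear consecutive numbers by placement alone was not tested.

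The next falls were closer to 2-fold. For uc.263- the signals were 129, 128 and 125 in control and 63.1, 58.0 and 59.6 in H/R, a fall to 0.477 (-1.07 ± 0.10, adjusted p = 0.00454), with the files of each group close together. For uc.97+ they were 98.1, 90.7 and 90.5 in control and 40.0, 51.4 and 50.7 in H/R (0.479 of control, adjusted p = 0.0122). Both, and uc.366-, turned sign without significance under normexp. With no filter on dim probes uc.263- kept its call (limma adjusted p = 0.0449), while uc.97+ (0.0713) and uc.366- (0.0635) lost theirs. With 1 array left out, the change stayed between -1.12 and -1.02 for uc.263- and between -1.24 and -0.88 for uc.97+. For uc.366- it lay between -1.84 and -1.32. Without H/R array 2 that value rests on H/R file 1 alone, where uc.366- was not detected. For uc.141+, uc.81+ and the plus strand probe of the SRSF3 element, fits with 1 array left out rest on control signals below background. They say nothing of stability there. The other 25 called members lost their call in at least 1 of these fits.

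The brightest called member was uc.46-, which fell to 0.513 of control. Its scaled signals were 15666, 14947 and 15012 in control and 6673, 9278 and 9242 in H/R (-0.96 ± 0.18, adjusted p = 0.0228). All files of H/R were below all of control, and H/R array 1 was the lowest. The fall was -0.73 without H/R array 1 (adjusted p = 0.0622), -0.93 without control array 1 (adjusted p = 0.0792) and -0.99 when control array 2 was left out (adjusted p = 0.0603). It remained a fall under normexp, at -1.11 (adjusted p = 0.334).

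The other falls named by size were uc.408-, uc.203+ and uc.436-. In uc.408- the signals were 909, 1052 and 1058 in control and 632, 442 and 449 in H/R, and here H/R array 2 was the lower (-0.88 ± 0.20, adjusted p = 0.0355). In uc.203+ (-0.88 ± 0.15, adjusted p = 0.0176) and uc.436- (-0.80 ± 0.10, adjusted p = 0.00924) the H/R signals were 0.543 and 0.576 of control. Of the remaining 8 falls, uc.75- and uc.188- were the brightest. The signals of uc.75- were 1564, 1367 and 1351 in control and 841, 864 and 878 in H/R, a fall to 0.587 of control (adjusted p = 0.0132). For uc.188- they were 2595, 2468 and 2473 in control and 1609, 1865 and 1875 in H/R, a fall to 0.685 (adjusted p = 0.0318). In both probes every H/R file lay below every control file. The others (uc.195-, uc.48-, uc.101-, uc.285+, uc.293- and uc.428+) were at 0.600 to 0.726 of control. All but uc.366- and uc.428+ of the 16 falls were detected in all 6 files. Minus strand probes made up 11 of the 16 falls and 7 of the 15 rises.

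**Figure D3:**
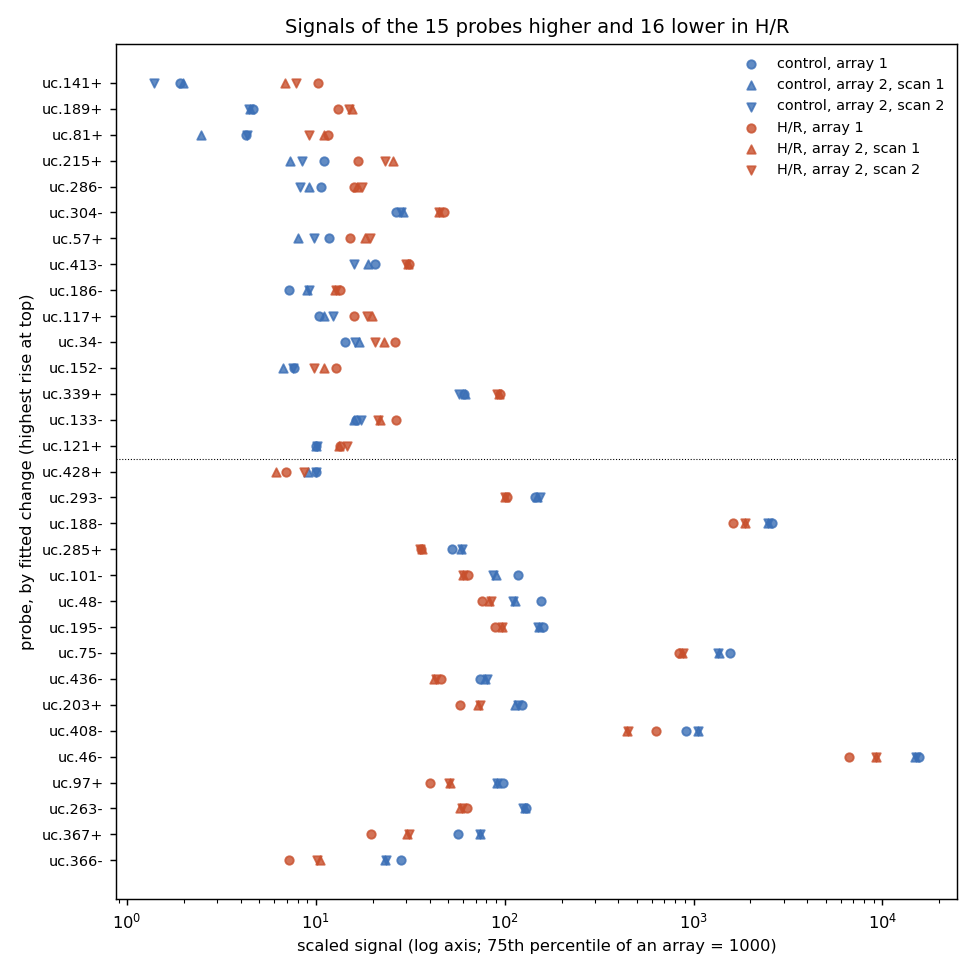
Scaled signal in each file (horizontal log axis) of the 15 members that rose, above the dotted line, and the 16 that fell, below it, ordered by fitted change. Blue marks are control and orange marks H/R, with a circle for array 1 and triangles for the 2 scans of array 2. In each of the 31 probes the H/R marks lie all on one side of the control marks.

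Just inside the threshold were uc.133-, uc.48- and uc.57+ (adjusted p = 0.0447, 0.0462 and 0.0485). Just outside were uc.404+, uc.340- and uc.432+ (adjusted p = 0.0508, 0.0511 and 0.0526). Among members detected in all 6 files, the largest change that did not pass was that of uc.184+ (-1.20 ± 0.37, adjusted p = 0.0790). The signal of uc.247- was at least 1.42-fold higher in H/R and did not pass (adjusted p = 0.0553), and its control array 1 (2.36) and array 2 (5.43 and 5.32) lay apart. Like uc.141+, uc.81+ and the plus strand probe of the SRSF3 element, it was detected in all H/R files and in no control file. The other 3 probes with that pattern were uc.219+, uc.221- and uc.404+, and they did not pass either. The opposite pattern, detected in all control files and in no H/R file, was found in 0 probes: each of the 6 probes detected in all control files but not in all H/R files was detected in 2 of 3 H/R files.

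The 6 members with the highest signal were uc.141-, uc.46-, uc.154+, uc.471+, uc.420- and uc.50-. Apart from uc.46-, none of them passed. The scaled signals of uc.141- were 11191, 12482 and 12629 in control and 10705, 10692 and 10839 in H/R, a change of -0.14 ± 0.10 (adjusted p = 0.356). For uc.154+ they were 11891, 11902 and 12242 in control and 9578, 9396 and 9375 in H/R, so the groups did not overlap, but the change of -0.34 ± 0.09 missed the threshold (adjusted p = 0.0558). It passed with median scaling (0.0324), only probes detected in all 6 files (0.0478) and 6 separate files (0.00083), the last of which counts 1 array as 2. It did not pass with quantile normalization (0.0587), the authors' deposited table (0.0578), the replicate block (0.0756), no filter (0.180) or normexp (0.403). The changes of uc.471+, uc.420- and uc.50- were -0.01, 0.24 and -0.34 (adjusted p = 0.921, 0.132 and 0.105). Of the 15 members with a mean scaled signal of 1000 or more, 13 were minus and 2 were plus strand probes, while below 100 there were 94 minus and 106 plus strand probes.

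Strand partners were compared by sign and by call. In 45 elements both strand probes were tested. In 22 of them both probes changed with the same sign and in 23 with opposite signs. In limma no element had both strands past the threshold (0 of 45), with 2 elements where both had an unadjusted p under 0.05, and in 11 elements 1 strand passed. Since only 12.8% of the tested members were called, these counts cannot show whether strands change separately. In uc.141 the dim plus strand probe, not detected in control, was at least 1.20-fold higher in H/R, and the minus strand probe differed by -0.14. In uc.46 the minus strand probe fell by 0.96 and the plus strand probe, with a mean scaled signal of 23.1, differed by 0.16 (adjusted p = 0.289). In uc.188 the minus strand fell by 0.55 and the plus strand differed by 0.23, and in uc.75 the changes were -0.77 (minus) and -0.09 (plus). In uc.413 the minus strand rose by 0.70 and the plus strand differed by -0.34, while in uc.339 both were higher (0.63 plus, 0.81 minus, the latter with adjusted p = 0.0661). Of these, uc.413+ was detected in 2 of 3 H/R files and uc.339- in 2 of 3 control files, so each passed the filter through 1 group alone. The difference between strands was not tested. The sources used here do not say how strand-specific the labelling was.

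**Figure D4:**
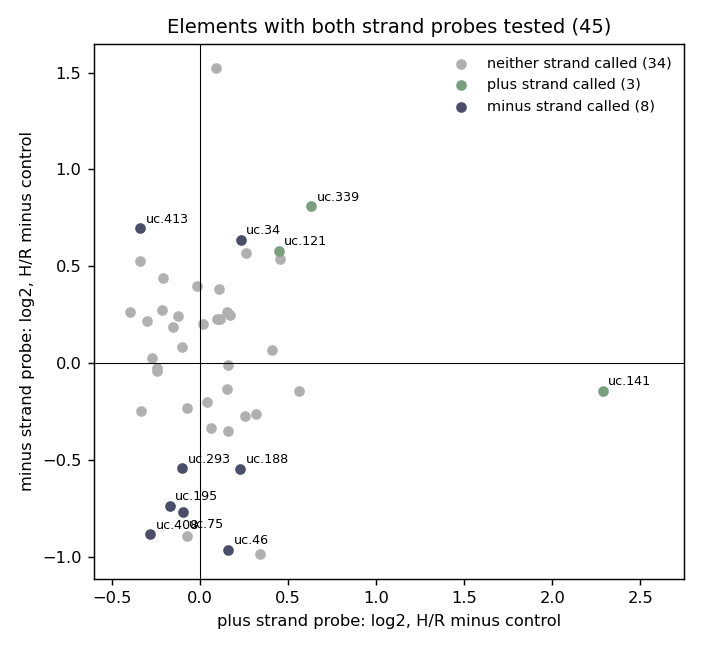
Log2 change, H/R minus control, of the minus strand probe (vertical axis) against that of the plus strand probe (horizontal axis) for the 45 elements in which both were tested. The 11 named elements have 1 strand past the threshold (3 plus, 8 minus), and uc.141 lies far to the right because of its dim plus strand probe.

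Elements known from work on hypoxia, the heart or RNA processing were looked up by name, 10 elements with 20 probes. Of these probes 7 were tested and 1 passed, the plus strand probe of the SRSF3 element described above, whose call does not support a rise. Of all probes tested 23.7% passed, and of the tested members 12.8%. Of the 20 probes looked up, a further 9 were detected in no file and 4 in some files only. At such signals a change was not detectable, which does not show that the transcripts are absent.

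One of these elements lies in OGT, the gene of the enzyme that attaches N-acetylglucosamine to proteins, and transcripts from it have been described as induced by hypoxia. The scaled signals of its plus strand probe were 71.1, 88.8 and 91.0 in control and 71.5, 76.6 and 79.2 in H/R. The groups overlapped, and the change of -0.10 ± 0.15 did not pass (limma adjusted p = 0.644). Its minus strand probe was detected in no file. The Ogt mRNA probe had 7312, 7091 and 7156 in control and 8549, 9023 and 9001 in H/R, without overlap, and its change of 0.28 ± 0.09 did not pass (adjusted p = 0.0906).

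Another lies in PCBP2, the gene of an RNA-binding protein of poly(C) tracts, and another in TRA2B, the gene of a splicing activator. The scaled signals of the plus strand probe of the PCBP2 element were 17.0, 20.2 and 20.1 in control and 13.9, 21.8 and 22.7 in H/R, with the H/R arrays on either side of control (-0.08 ± 0.25, adjusted p = 0.842). The Pcbp2 mRNA was lower by 0.21 ± 0.10 on the log2 scale, which did not pass (adjusted p = 0.169). For the TRA2B element the plus strand probe differed by 0.26 ± 0.32 and the minus strand probe by 0.57 ± 0.22. The groups overlapped on the plus strand and not on the minus strand, and neither probe passed (adjusted p = 0.572 and 0.131). The plus strand probe was detected in 2 of 3 control files and the minus strand probe in 1 of 3. Both therefore passed the filter through H/R alone, and their changes rest partly on control signals not above background. The Tra2b mRNA differed by 0.09 ± 0.12.

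**Figure D5:**
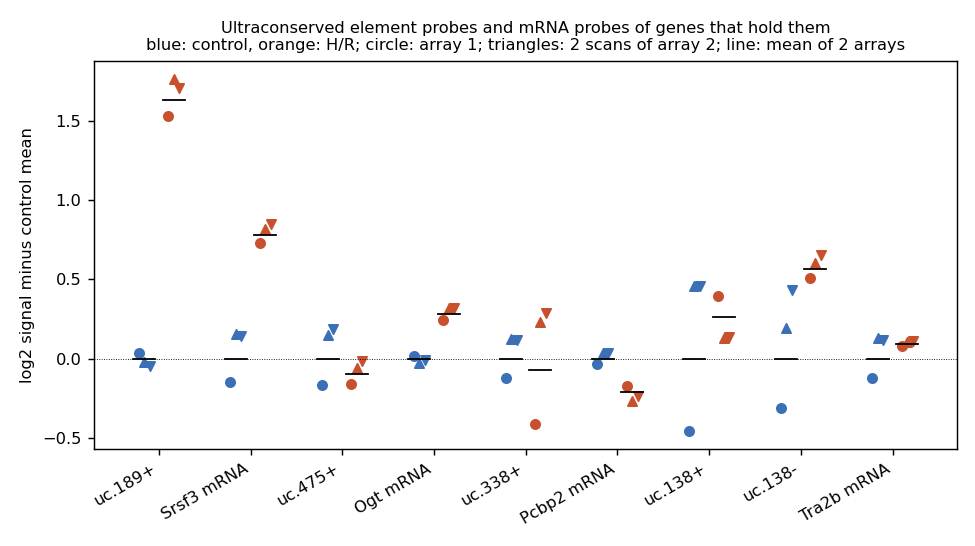
Log2 signal minus the control mean (vertical axis) of 5 ultraconserved element probes and of the mRNA probes of the genes known to hold them, with blue for control, orange for H/R, a circle for array 1, triangles for the 2 scans of array 2 and a line for the mean of 2 arrays. The plus strand probe of the SRSF3 element and the Srsf3 mRNA lie higher in H/R (1.64 and 0.78), the first with no control file above background, while the probes of the OGT, PCBP2 and TRA2B elements did not pass.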

How the data were processed

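Labelled cRNA was made by random priming after removal of ribosomal RNA, per the labels' protocols. Per the submitters' processing notes, the authors extracted spot intensity with Agilent Feature Extraction 11.0.1.1. In the deposited files, processed intensity is corrected for background within an array and not scaled between arrays, and the headers name no pooling. Other values used from the deposited files are the median pixel intensity of each spot and of its local background, and flags of 0 or 1 per spot. The authors also deposited log2 values for 16841 probes, 281 of them members, whose normalization the sources used here do not name. In each file they followed the log2 scanner signal across probes with r between 0.9998 and 0.9999.

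The tools were Python 3.11.15, pandas 2.3.3, matplotlib 3.10.9, R 4.3.3 and limma 3.58.1. Control spots and spots with outlier flags were dropped, repeat spots were averaged as log2 values (members have 1 spot each), and each array's 75th percentile over probes (1769 to 2634 units) was subtracted. The number of spots well above background was 58.4% to 71.1% of 42136, and 0 were saturated. The 15899 probes detected in all 3 files of a group entered lmFit and eBayes (two-sided, 2 residual and 2.86 prior degrees of freedom), with scans of 1 array averaged. Each array had its own position on the slide, and no position held both groups, so their effects cannot be told apart. The fit was tested on simulated data. The normexp alternative used median pixel signals, since the files hold no mean signal, with an offset of 50. Gene symbols came from RefSeq accessions (GRCr8, names only), which named 14274 of 15323 mRNA probes.

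The members, lists and tests were chosen with earlier results of these data known. Named members were the 8 largest rises and the 8 largest falls past the threshold without overlap between groups, the 6 brightest, 10 elements fixed by name (given by their genes or as counts) and 12 genes. Further members are named because they were called or lie beside a result. No element had both strands called. Probe sequences and genome positions are not used here.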

Additional observations from a re-analysis of the deposited data

How the results depend on the processing

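Counts of members changed, 31 in all (15 higher, 16 lower), moved with several choices. Quantile normalization gave 8 higher and 25 lower, as did the authors' deposited log2 table, and median scaling gave 13 and 31. With no filter on dim probes 6 changed (4 and 2), and with only probes detected in all 6 files 26 changed, 9 of them higher. In the latter fit 3790 of all 14835 probes changed, 2266 of them higher. With the 6 files taken as separate samples, which counts 1 array as 2, 85 changed (41 and 44). After normexp 0 changed in either direction. Leaving out 1 array at a time gave 9 to 41 in all, 3 to 19 higher and 5 to 22 lower. Over all probes 3769 changed (2358 higher, 1411 lower). The counts were 1566 higher and 2253 lower with median scaling, 594 (432 and 162) without the filter, 8309 (4850 and 3459) with 6 separate files, 0 with normexp (2044 at an unadjusted p under 0.05), and 1008 to 2702 with 1 array left out (631 to 1672 higher, 354 to 1030 lower). Taking the 75th percentile over spots, an alternative chosen after seeing the data, gave 16 higher and 21 lower members.

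Under normexp, which moved the median of all probes from 0.07 to 0.33 and that of the members from 0.01 to 0.92, falls that turned sign were uc.366- (0.61), uc.367+ (0.15), uc.263- (0.0153), uc.97+ (0.0768), uc.436- (0.33), uc.101- (0.0576), uc.285+ (0.47), uc.293- (0.0621), uc.428+ (0.92) and uc.48- (0.0212). The cause was not tested. Outside normexp all 31 calls kept their direction in the alternatives that tested them. For the called members not detected in any control file, that direction rests on control signals below background and does not support a rise. Detection by the weaker flag, a signal significantly above local background, gave 453 members in control and 532 in H/R.

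Arrays 1 and 2 share only a number. Same-numbered arrays deviated together at r = 0.15 across all tested probes, and with the replicate block 39 members changed (19 higher, 20 lower), 28 of the 31 among them. The lowest detected signal of each array limits what can be seen of the dim members.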
